A study of Mus musculus with 4 samples.

Results

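The 10 genes described here, out of 32285 in the gene table, encode interferon-induced GTPases: Iigp1, Igtp, Irgm1, Irgm2, Ifi47 and Tgtp2 of the immunity-related GTPase (IRG) family, and Gbp2, Gbp3, Gbp4 and Gbp7 of the guanylate-binding protein (GBP) family. They were taken by gene symbol, with no threshold on their values. They were measured in live T cells sorted from lymph nodes draining MC38-OVA tumours, a mouse colon carcinoma made to express ovalbumin. The mice were labelled as control genotype (WT) or as a PD-L1 knockout restricted to dendritic cells (KO), and were given either a control treatment (CTRL) or doxorubicin (DOX), a DNA-damaging anthracycline drug. All 4 groups carried tumours. Each group is 1 droplet single-cell 5′ library with unique molecular identifiers (UMIs, 1 for each captured transcript), and neither the number of mice behind a library nor the driver of the knockout is given in the sources used here. No difference between groups could therefore be tested, and every interval covers counting error only. PD-L1 is encoded by Cd274, which was at 68.4, 66.2, 84.6 and 84.8 CPM, which are UMIs of the gene per 1000000 UMIs of the library, in WT-CTRL, WT-DOX, KO-CTRL, KO-DOX. That is the order of every set of 4 values in this account. Sorted T cells hold few dendritic cells, so Cd274 in them does not check the knockout.

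Interferons bind surface receptors, and JAK kinases then activate transcription factors that enter the nucleus. Interferon gamma acts mainly through DNA elements called GAS, and type I interferon mainly through elements called ISRE. IRG and GBP proteins are among the most strongly induced products. They assemble on the membranes of vacuoles that hold pathogens and on bacteria, where they help to break these structures open. Irgm1 and Irgm2, with Igtp, are the regulatory IRG proteins that keep effectors such as Iigp1 and Tgtp2 from loading onto the cell's own membranes. In T cells, these genes are also used as a readout of interferon exposure.

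The bases upstream of the annotated starts of these genes were searched for both elements, as a description of genes chosen as interferon-induced. The RefSeq table of mouse promoters (GRCm38.p6, 250 bases before to 50 after a start) holds 8 of the 10 genes, and Iigp1 and Gbp4 have no entry. The GAS element was searched as TTCNNNGAA, a palindrome whose matches are the same on both strands, and the ISRE core as GAAANNGAA on either strand. Of 32851 promoters, 8.30% held the first and 8.56% the second. An ISRE match was found in 7 of the 8 members and a GAS match in 4 of them. The second Gbp3 entry and Ifi47 had neither, which says only that these letters are not in its window. Capitals mark the matched letters in the following stretches, written 5′ to 3′ on the strand of the gene. The first 4 span the 120 bases before the start, and the others give 30 bases around the matches, since a gene model has an exon there.
Igtp, chr11:58199436-58199555, plus strand: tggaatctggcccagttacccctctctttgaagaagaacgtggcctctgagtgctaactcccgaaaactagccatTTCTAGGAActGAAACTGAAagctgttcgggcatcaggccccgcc
Irgm2, chr11:58214857-58214976, plus strand: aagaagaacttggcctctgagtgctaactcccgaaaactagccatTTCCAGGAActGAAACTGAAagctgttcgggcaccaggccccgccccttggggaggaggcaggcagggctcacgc
Tgtp2, chr11:49064213-49064332, minus strand: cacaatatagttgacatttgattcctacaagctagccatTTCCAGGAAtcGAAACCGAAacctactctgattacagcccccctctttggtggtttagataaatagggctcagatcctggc
Gbp7, chr3:142530216-142530335, plus strand: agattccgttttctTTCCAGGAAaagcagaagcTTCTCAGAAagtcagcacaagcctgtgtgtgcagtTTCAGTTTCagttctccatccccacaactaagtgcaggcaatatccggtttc
Irgm1, chr11:48871428-48871457, minus strand: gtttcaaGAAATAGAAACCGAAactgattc
Gbp2, chr3:142620595-142620624, plus strand: ctcttttagtTTCACTTTCactgtcttaag
Gbp3, chr3:142559993-142560022, plus strand: acacagtTTCAGTTTCTATTTCccagatcc

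Igtp, Irgm2 and Tgtp2 share one arrangement, a GAS match followed by an ISRE match whose first base lies 11 bases further on. This spacing was searched for after it was seen in these 3 genes. It occurred in 8 of 32851 promoters, among them those of Tgtp1 and Gm12185, which lie in the IRG cluster of Tgtp2. Igtp and Irgm2 lie apart from that cluster on chromosome 11. The upstream stretches of Tgtp1 and Tgtp2 were 78.1% identical over their alignment, and those of Irgm2 and Tgtp2 62.5%. Those of Igtp and Irgm2 shared 87 bases, or 58.0% of an alignment of 150. Their similar parts are offset, with the GAS match beginning at base -45 in Igtp and -75 in Irgm2. The spacing in these related stretches is therefore not a set of independent occurrences. Gbp7 carries 2 GAS matches and an ISRE match on the other strand, while Irgm1 and Gbp3 each carry 2 overlapping ISRE matches. Gbp2 has a single ISRE match. A match is a description of letters and not a measured binding site. The matches do not follow the library pattern given below. With a GAS match, Gbp7 was higher in both KO libraries, and Irgm2 and Tgtp2 were not. Irgm1, Gbp2 and Gbp3, with ISRE matches only, were higher in both. The part of these elements in the differences between libraries was not tested.

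The libraries held 10372 to 12959 barcodes and 37754389 to 47081849 UMIs. T cells were taken as barcodes with at least 1 UMI of a T cell receptor or CD3 gene and under 2 UMIs of B cell, plasma cell, dendritic and myeloid markers together, which gave 12464, 12176, 12694 and 10102 cells. Among them, the 5 dendritic markers summed to 1.21 to 1.93 CPM, with Siglech at 0 in every library, and the 3 myeloid markers summed to 2.88 to 3.57 CPM. Between pairs of libraries, 175 to 271 barcodes were shared, or 1.69% to 2.11% of the smaller library.

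Of the 10 genes, 7 reached a mean of 5 CPM and 3 were at or near 0. Igtp had 1, 4, 4 and 1 UMIs in T cells and Gbp4 had 3, 2, 2 and 3. Ifi47 had 0 UMIs in every library, and 3 counts would correspond to 0.0650 to 0.0810 CPM, or to 0.0236% to 0.0297% of the cells. No change of these 3 genes could be read at this depth. In GENCODE M21 (GRCm38), each of them shares exon bases with another gene on its strand. Igtp (chr11:58199556-58207591, plus strand) overlaps the first exon of Irgm2 (chr11:58199618-58222782, plus strand) over 162 bases, which begin 63 bases into Igtp. Gbp4 (chr5:105115767-105139586, minus strand) shares 61 bases near its start with Gbp8, which had 2639, 2542, 2916 and 2442 UMIs. It also shares 60 bases there with Gbp9, which had 0 UMIs in every library. Ifi47 (chr11:49076587-49096974, plus strand) shares 111 bases with the long model of Olfr56, an odorant receptor gene, which had 682, 588, 813 and 582 UMIs. In the RefSeq annotation Irgm2 starts at chr11:58214977, past the end of Igtp, and does not overlap it. The annotation used for counting is not given in the sources used here, and the part of these overlaps in the counts was not tested. The values of Irgm2 are uncertain for that reason, since a 5′ read from the shared exon could belong to either gene.

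**Figure D1:**
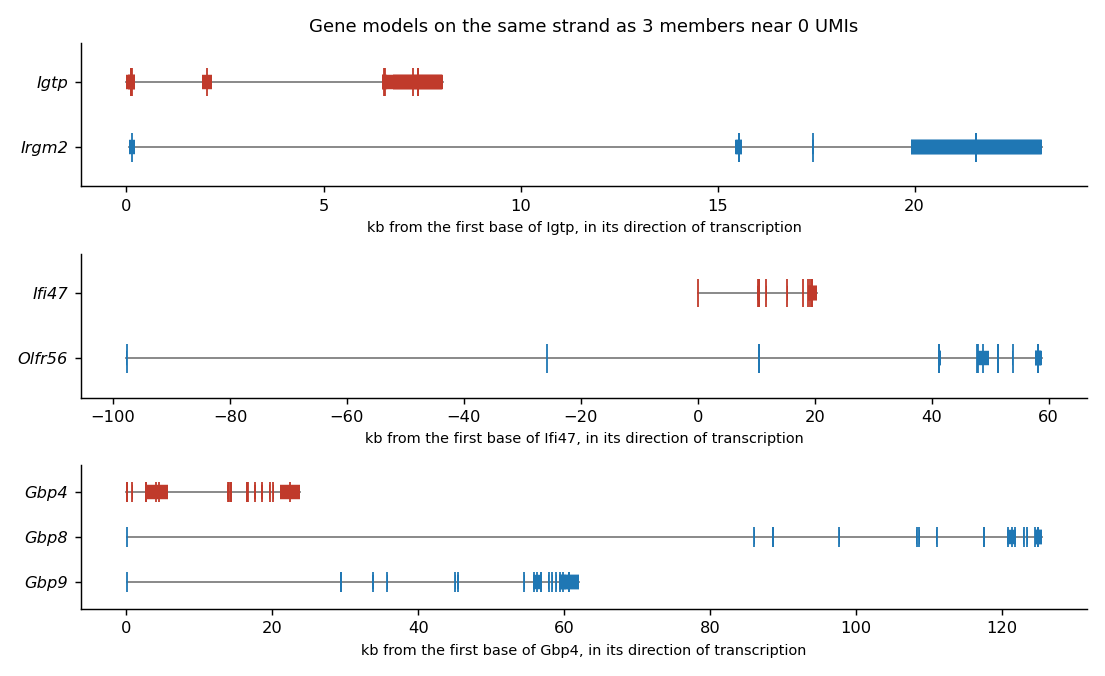
Gene models of GENCODE M21 on the same strand as Igtp, Ifi47 and Gbp4, drawn to scale in kb from the first base of each of these genes; thick blocks are exons, thin upright lines mark the centre of each exon so that short ones can be seen, and grey lines span the gene. The 3 genes that were near 0 UMIs (red) share exon bases with a neighbour (blue).

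The clearest difference lay between genotypes and was largest for Iigp1, an effector IRG protein encoded on chromosome 18 (GRCm38, 60376027 to 60392634, plus strand). It stood at 20.4, 18.3, 39.2 and 34.7 CPM. Both KO libraries were above both WT libraries, with 1808 and 1284 UMIs against 930 and 775. Iigp1 was 1.92-fold higher in KO-CTRL than in WT-CTRL (95% interval 1.77 to 2.08) and 1.90-fold higher in KO-DOX than in WT-DOX (1.73 to 2.08). It was detected in 5.26%, 4.64%, 9.60% and 9.28% of T cells.

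Among the regulatory IRG genes, Irgm1 and Irgm2 differed in pattern. Irgm1 (chr11:48861968-48871683, minus strand) stood at 45.9, 45.0, 61.0 and 53.4 CPM, again higher in both KO libraries. Its ratio was 1.33 (1.25 to 1.41) in the control pair and 1.19 (1.11 to 1.26) in the doxorubicin pair. Irgm2 stood at 37.3, 23.1, 29.9 and 29.8 CPM, so WT-CTRL was the highest library, WT-DOX the lowest and the KO libraries lay between them. The effector gene Tgtp2 (chr11:49057194-49064206, minus strand) was at 93.1, 113, 97.8 and 97.3 CPM, where WT-DOX alone was high.

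The 3 measurable GBP genes lie in 1 cluster on chromosome 3, and all were higher in both KO libraries. Gbp2 (chr3:142620602-142638008, plus strand), which targets pathogen vacuoles, was at 51.3, 51.5, 65.9 and 67.1 CPM. Gbp7 (chr3:142530342-142550149, plus strand) was at 76.8, 74.8, 92.0 and 89.3 CPM. Gbp3 (chr3:142560026-142573209, plus strand), the weakest of the 7, was at 11.9, 10.6, 14.2 and 14.3 CPM. KO-CTRL exceeded WT-CTRL by 1.28-fold (1.22 to 1.36) for Gbp2, 1.20-fold (1.14 to 1.25) for Gbp7 and 1.19-fold (1.06 to 1.33) for Gbp3. With doxorubicin the genotype ratios were 1.30 for Gbp2, 1.19 for Gbp7 and 1.35 for Gbp3.

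In all, 5 of the 7 measurable members were above both WT libraries in both KO libraries, the exceptions being Irgm2 and Tgtp2. Over all 9032 genes tested for this pattern, 25.5% showed it. The pattern was not particular to the members. In lists described further on, it was shown by 5 of 7 other interferon-inducible GTPases and 18 of 23 type I response genes. It was shown by 3 of 7 genes of type I interferon reception. A gene was called where the log2 fold of CPM plus 1 reached 0.32, a rule of size and not a test. By this rule 3 members were higher in KO-CTRL than in WT-CTRL (Iigp1, Irgm1 and Gbp2) and 0 were lower, against 1.58% and 0.719% of all 9037 genes. The median of the 7 members was 0.26 log2 units, and that of all genes 0.00. In KO-DOX against WT-DOX, 4 members were higher (Iigp1, Irgm2, Gbp2 and Gbp3) and 0 lower, against 4.33% and 1.05% of 9011 genes. Here the members' median was 0.35 and that of all genes 0.03. Just outside the rule lay Irgm2 in the first of these comparisons, at -0.31 log2 units, and Gbp7 in both, at 0.26 and 0.25.

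**Figure D2:**
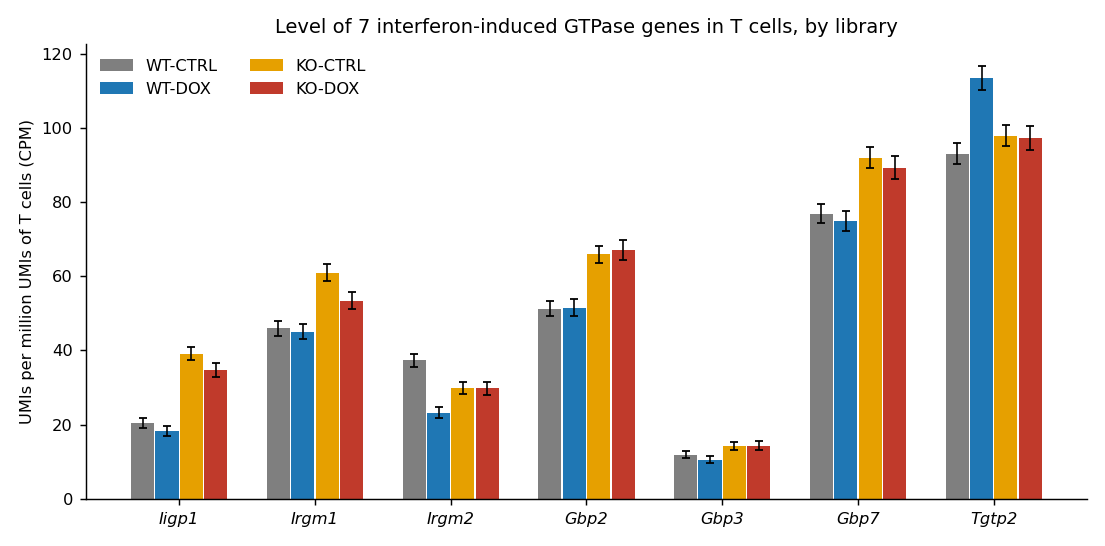
Level of the 7 measurable genes in T cells, in CPM, as 1 bar for each library with its exact Poisson 95% interval (counting error only). The KO bars (yellow and red) stand above the WT bars (grey and blue) for Iigp1, Irgm1, Gbp2, Gbp3 and Gbp7, and not for Irgm2 or Tgtp2.

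Between doxorubicin and control treatment the summed level differed little, while Irgm2 and Tgtp2 differed in WT mice. Summed over the 10 genes, the level was 337, 337, 400.0 and 386 CPM. The log2 ratio of WT-DOX to WT-CTRL was 0.00051 (-0.03 to 0.03), and that of KO-DOX to KO-CTRL was -0.05 (-0.08 to -0.02). The genotype ratios of the sum were 1.19 (1.16 to 1.21) without and 1.14 (1.12 to 1.17) with doxorubicin. In WT mice 0 members were higher by the size rule, and 1, Irgm2, was lower with doxorubicin, against 0.632% and 3.43% of 9020 genes. In KO mice 0 were higher and 0 lower, against 0.719% and 0.874% of 9035 genes.

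The even sum in WT mice hides members that went apart. Irgm2 was 0.62-fold in WT-DOX (0.57 to 0.67) while Tgtp2 was 1.22-fold (1.17 to 1.27). In KO mice the same ratios were 0.997 (0.92 to 1.08) and 0.99 (0.95 to 1.04). WT-DOX also had the lowest level of the 2 cycling markers, at 114 CPM against 176 to 197 in the other libraries; their part in these differences was not tested. The log2 response in KO minus that in WT was 0.68 (0.52 to 0.85) for Irgm2 and -0.29 (-0.38 to -0.21) for Tgtp2. For the sum it was -0.05 (-0.10 to -0.01), a value that turned to 0.0592 without Tgtp2 and to 0.0747 without cells holding an Ifit-type UMI, defined further on. The interval of the response difference included 0 for Iigp1, Gbp2, Gbp3 and Gbp7, and for Irgm1 it was -0.16 (-0.28 to -0.04).

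**Figure D3:**
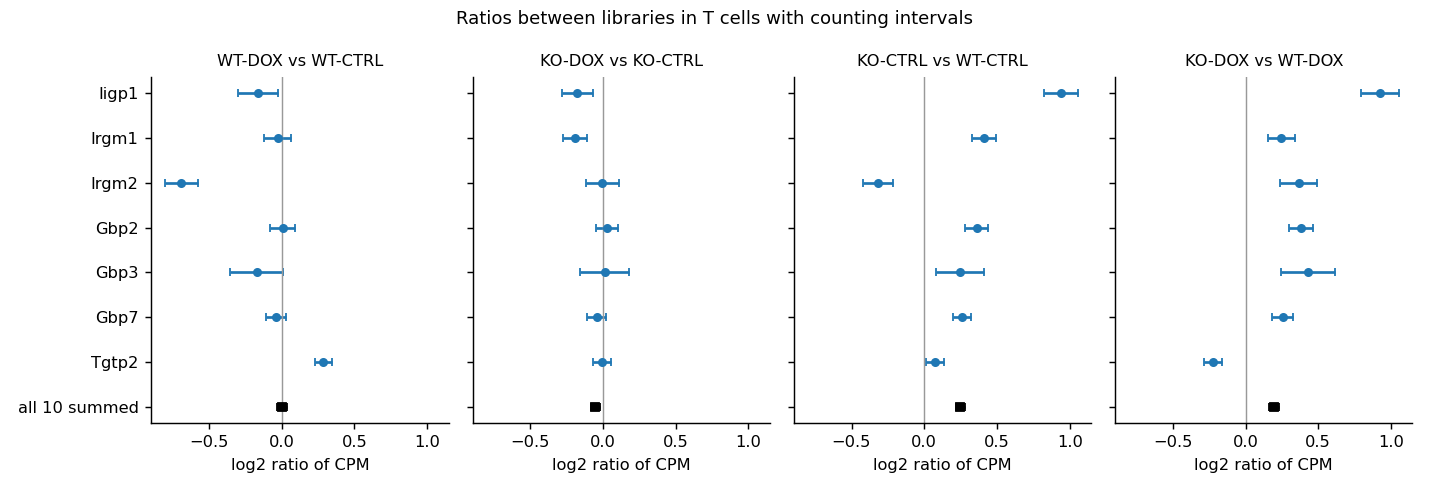
Log2 ratio of CPM between 2 libraries in T cells for each of the 7 genes (circles) and for the sum of all 10 (squares), with 95% counting intervals, in 4 panels, 1 for each comparison. In the genotype panels Iigp1 lies farthest to the right, and in the panel of WT-DOX against WT-CTRL Irgm2 lies to the left and Tgtp2 to the right of 0.

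The T cells were then split by marker UMIs. Foxp3-positive cells, with at least 1 UMI of the lineage factor of regulatory T cells and no CD8 UMI, numbered 203, 176, 232 and 169. Ikzf2 was at 899 to 1061 CPM in them and at 123 to 161 CPM in the other CD4 cells, and Il2ra was at 410 to 546 against 24.9 to 43.4 CPM. Effector CD8 cells were CD8 cells with at least 3 UMIs of Ccl5, a chemokine of effector and memory cells, and numbered 220, 243, 242 and 218. They were set against 3727 to 4626 other CD8 cells with no Ccl5 UMI, and the Foxp3-positive cells against 1677 to 2320 other CD4 cells. The other CD4 cells needed at least 1 Cd4 UMI and the Foxp3-positive cells did not. Mki67, a cycling marker, was at 376 to 520 CPM in Foxp3-positive cells and at 73.2 to 121 CPM in other CD4 cells. The part of these differences in the gate ratios below was not tested. Cells whose few marker UMIs put them in no gate stay out of these values.

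Foxp3-positive cells had the highest summed level in each library, at 581, 552, 602 and 540 CPM, followed by other CD8 cells at 392, 396, 447 and 440 CPM. Other CD4 cells were at 277, 248, 334 and 299 CPM, and effector CD8 cells were lowest, at 199, 210, 226 and 246 CPM. This order held in all 4 libraries. The ranges of neighbouring gates did not overlap, although the lowest CD4 value and the highest effector value differed by less than their counting intervals. The sum was 1.80- to 2.22-fold higher in Foxp3-positive than in other CD4 cells, and effector CD8 cells had 0.51- to 0.56-fold of the other CD8 cells. Each direction held in 4 of 4 libraries (exact sign-flip permutation test, 2-sided, p = 0.13, the smallest that 4 libraries allow).

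Within the Foxp3-positive cells the members were unequal. Gbp3 stood at 71.9, 53.9, 68.8 and 66.9 CPM against 11.5, 7.09, 11.7 and 10.2 CPM in other CD4 cells, so its 2 ranges lay far apart. As a ratio of CPM + 1, the scale of all gate ratios here, this was 5.51 to 6.78. Gbp7 was at 231, 186, 204 and 176 CPM against 64.1, 53.5, 66.1 and 67.8 CPM, a ratio of 2.57 to 3.56. For Iigp1 the ratio was 2.01 to 4.45, with 49.3, 90.7, 86.7 and 82.0 CPM in Foxp3-positive cells. WT-CTRL was thus the low library for Iigp1 there, while WT-DOX was as high as the KO libraries, and the log2 response to doxorubicin in KO minus that in WT was -0.96 (-1.54 to -0.39). Few cells carried this level: Iigp1 was detected in 44, 33, 71 and 44 Foxp3-positive cells (21.7%, 18.8%, 30.6% and 26.0%), so by share of cells WT-DOX was the lowest library. The cell with the most held 8, 20, 7 and 15 UMIs, and without it the levels were 44.0, 73.9, 82.5 and 70.3 CPM. Gbp2, Irgm1 and Irgm2 were higher by 1.13- to 1.83-fold. Tgtp2 was the exception, with a ratio of 0.83 to 0.97.

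Foxp3-positive cells also held more UMIs per cell, with medians of 4006 to 4280 against 2937 to 3143 in other CD4 cells. After each cell had been thinned to 2000 UMIs, 63.4%, 56.8%, 59.8% and 62.6% of Foxp3-positive cells had a UMI of any member, against 36.4%, 35.2%, 40.6% and 38.3% of other CD4 cells. Thinning left out 12 to 28 Foxp3-positive and 221 to 284 other CD4 cells per library. Without thinning the shares were 75.6% to 80.3% and 44.2% to 51.7%. No T cell class known to lack these genes was at hand as a background for such shares.

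Tgtp2 had its highest level in other CD8 cells, at 131, 150, 125 and 128 CPM, and 45.9 to 75.3 CPM in the remaining 3 gates. In effector CD8 cells Iigp1 was at 3.18, 6.91, 9.43 and 12.1 CPM from 4, 9, 12 and 14 UMIs, against 15.2 to 35.1 CPM in other CD8 cells. Irgm1, Irgm2, Gbp2, Gbp7 and Tgtp2 were also lower in effector cells in 4 of 4 libraries, each with p = 0.13 in the exact sign-flip permutation test. Gbp3 was higher in 2 libraries and lower in 2.

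**Figure D4:**
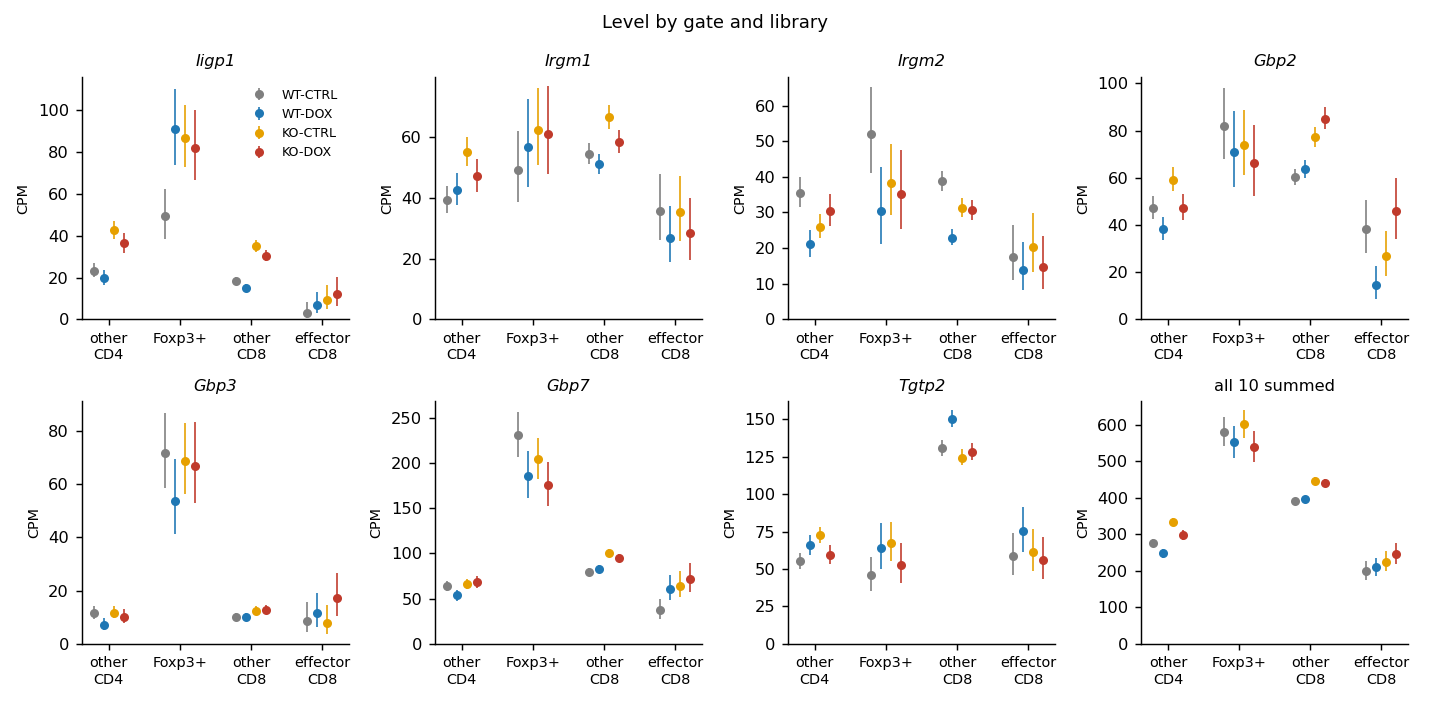
Level in CPM (vertical axis, from 0) of each gene and of the sum of 10 genes in 4 groups of T cells gated by marker UMIs; points are libraries, coloured as in the legend, and bars are exact Poisson 95% intervals. Gbp3 and Gbp7 stand out in Foxp3-positive cells, and Tgtp2 in other CD8 cells.

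The genotype difference was then read within the gates. For Iigp1, KO-CTRL against WT-CTRL was 42.7 against 23.3 CPM in other CD4, 86.7 against 49.3 in Foxp3-positive, 35.1 against 18.2 in other CD8 and 9.43 against 3.18 in effector CD8 cells. These effector values rest on 12 and 4 UMIs. By the size rule 3 of 7 members were higher in other CD4 cells (Iigp1, Irgm1 and Tgtp2), against 5.03% of genes, and 1, Irgm2, was lower (-0.44 log2 units), against 3.63%. In other CD8 cells 3 of 7 were higher (Iigp1, Gbp2 and Gbp7), against 2.71%, and 0 were lower, against 1.89%. In the sparse gates the background was wide: 3 of 7 members (Iigp1, Irgm1 and Tgtp2) were higher in Foxp3-positive cells, against 11.9% of genes, and 1, Irgm2, was lower, against 15.5%. In effector cells 1 of 5, Gbp7, was higher, against 15%, and 1, Gbp2, was lower, against 16.6%. The median of the 7 members in Foxp3-positive cells was -0.06 log2 units. In the doxorubicin pair 0 of 7 were higher and 0 lower in these cells, against 15.2% and 17.7% of genes. The summed log2 ratio in Foxp3-positive cells was 0.05 for KO-CTRL against WT-CTRL and -0.03 for KO-DOX against WT-DOX, near 0 in both. In all CD4 cells it was 0.20 in both genotype pairs, but 0.13 and 0.06 where at least 2 Cd4 UMIs were required. Without cells holding an Ifit-type UMI, these CD4 ratios were 0.15 in the control pair and 0.20 in the doxorubicin pair. In all CD8 cells KO-CTRL against WT-CTRL was 0.18, and 0.02 without cells holding an Ifit-type UMI. KO-DOX against WT-DOX in all CD8 cells was 0.15, and 0.12 without them. Among other CD8 cells, Irgm2 was at 38.8, 22.9, 31.2 and 30.6 CPM, and WT-DOX was its lowest library in the other 3 gates too. In the sparse gates this order is within counting error. WT-DOX and KO-DOX were at 13.8 and 14.7 CPM in effector cells, from 18 and 17 UMIs. In Foxp3-positive cells they were at 30.5 and 35.1 CPM, again with overlapping intervals.

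Part of the T cells held transcripts of Ifit1, Ifit3, Ifit3b or Rsad2, which mark cells under a type I interferon response. Such cells, with at least 1 UMI of these 4 genes, made up 8.41%, 6.19%, 12.9% and 8.48% of the T cells, so KO-CTRL had the most and WT-DOX the fewest. They were somewhat deeper: cells with 1 such UMI and cells with more had medians of 3367 to 3666 UMIs over the libraries, against 2974 to 3058 in the cells without. The summed level of the 10 members was 590, 621, 804 and 661 CPM in these cells against 309, 316, 331 and 356 CPM in the rest. That is a ratio of 1.91 (1.83 to 1.99), 1.97 (1.87 to 2.07), 2.43 (2.35 to 2.50) and 1.86 (1.78 to 1.94). Iigp1 had the widest gap, at 2.92-, 2.56-, 3.52- and 2.17-fold, and Gbp3 the narrowest, at 1.27-, 1.66-, 1.78- and 1.29-fold. The Gbp3 interval included 1 in WT-CTRL and KO-DOX.

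**Figure D5:**
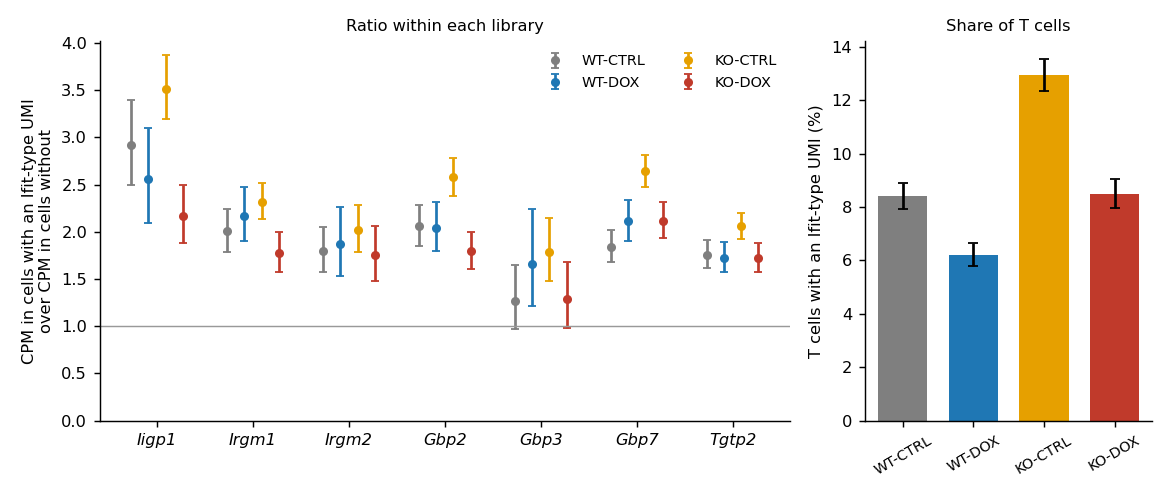
Left, CPM in T cells with at least 1 UMI of Ifit1, Ifit3, Ifit3b or Rsad2 divided by CPM in those without, for each gene and library, with 95% counting intervals; the grey line marks equal levels. Right, the percentage of T cells with such a UMI, with exact 95% intervals; KO-CTRL is highest on the right and, for each of the 7 genes, on the left.

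These cells carried unequal parts of the 2 genotype differences. Of the 63.1 CPM by which the sum in KO-CTRL exceeded WT-CTRL, 58.9 CPM came from cells with an Ifit-type UMI and 4.23 CPM from the rest. Of the 48.9 CPM between KO-DOX and WT-DOX, 21.2 CPM came from them and 27.7 CPM from the rest. Each part is a level weighted by the share of UMIs in those cells. Cells with an Ifit-type UMI held 9.81%, 6.99%, 14.5% and 9.77% of the UMIs, so the split mixes cell shares with levels. In the rest the summed level was 309 CPM in WT-CTRL and 331 CPM in KO-CTRL. Without these cells, the summed log2 ratio of KO-CTRL to WT-CTRL was 0.10 in place of 0.25. That of KO-DOX to WT-DOX was 0.17 in place of 0.20. For Iigp1 a gap stayed in the cells without an Ifit-type UMI, at 17.2, 16.5, 28.7 and 31.1 CPM. Gbp7 in the same cells was at 71.0, 69.4, 74.3 and 80.5 CPM, where KO-CTRL and WT-CTRL differed little. Without these cells the summed log2 ratio of KO-DOX to KO-CTRL turned from -0.05 to 0.10.

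The members also occurred together in single cells. In cells with an Iigp1 UMI, the other 9 members summed to 705, 672, 758 and 635 CPM, against 288, 296, 307 and 316 CPM in cells without one. Across the 7 members and 4 libraries this ratio ran from 1.17, for Gbp3 in KO-DOX, to 2.47, for Iigp1 in KO-CTRL. Cells with a UMI of a member were deeper, with medians of 3409 to 4391 UMIs against 2878 to 3069. These ratios are over all T cells of a library, whose gates differ in the level of the members. They therefore mix cell types with joint occurrence inside a cell type, which was not tested.

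Other genes of the pathway were counted by the same rule of size, from lists chosen with earlier results of these data known. Of 19 other interferon-inducible GTPases, 15 were in the gene table. In KO-CTRL against WT-CTRL 3 of 8 measurable ones were higher, namely Gbp10 (12.6 to 17.6 CPM), Gbp6 (78.8 to 106 CPM) and Gm5431 (5.58 to 7.41 CPM), and 0 were lower. In KO-DOX against WT-DOX 2 of 7 were higher (Gbp10 and Gvin1) and 1 was lower (9930111J21Rik2). Gbp5, which lies next to Gbp7, was at 24.3, 22.6, 28.9 and 27.4 CPM.

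In the list of interferon gamma and its signalling, Socs1 and Socs3 were higher in KO-CTRL than in WT-CTRL, at 94.9 against 75.4 CPM and 51.2 against 40.5 CPM. Ifng itself was at 15.9, 13.7, 19.3 and 22.2 CPM, and passed the rule in KO-DOX against WT-DOX. The receptor genes Ifngr1 and Ifngr2 were within 0.32 log2 units in all 4 comparisons. Socs1 and Socs3, feedback inhibitors of JAK kinases, were also higher in WT-DOX than in WT-CTRL.

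Among 7 genes of type I interferon reception, Usp18, Irf7 and Stat2 were higher in KO-CTRL than in WT-CTRL, and Usp18 and Stat2 were lower in KO-DOX than in KO-CTRL. The receptor chains Ifnar1 and Ifnar2 differed by less than 0.1 log2 units in each comparison. Of 23 measurable genes of the type I response, 17 were higher in KO-CTRL than in WT-CTRL, and 12 of 23 were lower in KO-DOX than in KO-CTRL. Their median in that second comparison was -0.38 log2 units, while the median of the 7 members was -0.01. Ifit3 was at 15.2, 10.6, 42.0 and 16.3 CPM, with KO-CTRL the highest. In KO-DOX against WT-DOX 10 of 21 genes of this list were higher and 0 lower, Ifit3 among the former at 0.58 log2 units, and the median of the list was 0.32 against 0.35 for the members.

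By the size rule, 0 of 12 genes of antigen presentation and the immunoproteasome, and 0 of 5 autophagy genes that act with these GTPases, were called in any of the 4 comparisons. In both KO libraries 9 of the 12 and 1 of the 5 were nevertheless above both WT libraries, the pattern that 25.5% of all genes showed. Psmb8, an immunoproteasome subunit, was at 410, 459, 465 and 502 CPM. Atg5, needed for the placement of IRG proteins, was at 58.9, 60.5, 55.6 and 57.5 CPM. The 5 genes most similar to the mean of the members over 16 points (4 gates in 4 libraries, among 6001 genes) were Tapbp, Gbp6, Cdv3, Erap1 and Eif3m, with Pearson r of 0.93 to 0.94. These points share libraries and gates.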

How the data were processed

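The deposited values are raw UMI counts per gene and barcode, made by the authors with genome build mm10, per the submitters' processing notes; the aligner, its settings and the annotation were not given in sources used here. Filtering on a minimum of 300 genes and a mitochondrial share of up to 10% left 48578 of 48597 barcodes, and no doublet caller was run. CD4 cells had at least 1 Cd4 and no CD8 UMI, CD8 cells at least 2 Cd8a and Cd8b1 UMIs and no Cd4; cells with both made up 1.27% to 1.71% of T cells and are in no gate. UMIs were summed over the cells of a library and divided by all their UMIs (CPM), with exact Poisson and conditional binomial 95% intervals. Calls needed a mean of 5 CPM and 30 UMIs. All 10 members, the 5 most similar genes and up to 3 genes per list and direction are named, with Gbp5, Psmb8, Atg5, Ifnar1, Ifnar2, Ifngr1 and Ifngr2 added after their values were seen; the members and lists were chosen with earlier results of these data known. The calculation was tested on simulated data. Alternatives changed scaling, cell filters, weights, gates, fold size and pseudocount. Python 3.11.15, numpy 2.4.6, scipy 1.17.1 and pandas 2.3.3 were used. One gene of the interferon gamma list is not reported here.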

Additional observations from a re-analysis of the deposited data

Results flagged for a closer look

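A single GTPase gene, 9930111J21Rik2 on chromosome 11, went opposite ways with doxorubicin in the 2 genotypes. It was at 32.3, 92.7, 36.1 and 27.2 CPM in WT-CTRL, WT-DOX, KO-CTRL, KO-DOX, so WT-DOX stood apart from the other 3 libraries. The log2 ratio to the control treatment was 1.52 (1.44 to 1.61) in WT and -0.41 (-0.53 to -0.30) in KO, a difference of -1.93. With 1 library per group this difference was not tested.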

How the results depend on the processing

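The summed ratios, the response difference and the gate differences were recomputed under the alternatives. They stayed within the counting interval or the spread of the libraries 45 times, moved further 7 times and were reversed 3 times. For ratios within single gates and counts of members, 76 stayed, 15 moved and 1 was reversed. Counts were judged by the relative size of their change, so a count that went from 4 to 6 is among those that stayed. A ratio or response difference was called reversed only where it changed sign and its main interval left out 0. Other changes of sign are among those that stayed or moved. An example is KO-DOX against KO-CTRL in CD8 cells, which went from -0.02 to 0.13 without cells with an Ifit-type UMI. The gate differences within a library, whose alternatives were added after seeing the data, all stayed. For the Foxp3-positive difference the changed CD8 and Ccl5 rules touch neither gate, so it could not move. The same holds for the effector difference under the changed Cd4 and Foxp3 rules. These unchanged values are counted among the 45. Without Tgtp2, the member with the most UMIs, the summed log2 ratio was -0.13 for WT-DOX against WT-CTRL, 0.31 for KO-CTRL against WT-CTRL and 0.37 for KO-DOX against WT-DOX, and the response difference was 0.0592. Without cells with an Ifit-type UMI, KO-DOX against KO-CTRL turned to 0.10, KO-CTRL against WT-CTRL was 0.10 and the response difference 0.0747. Without the 2% of cells with the most UMIs, KO-DOX against WT-DOX was 0.23. When every cell counted equally, the genotype ratios were 0.296 (control) and 0.244 (doxorubicin). With at least 2 Foxp3 UMIs, the Foxp3-positive ratio of KO-DOX to KO-CTRL turned from -0.16 to 0.0695. The count of members higher in KO-DOX than in WT-DOX was 4. It was 6 at 0.2 log2 units, 2 with a pseudocount of 5 CPM, and 1 at 0.58 log2 units. In KO-CTRL against WT-CTRL the count was 3, with 5 at 0.2 and 1 at 0.58 log2 units. Depth limits the effector and Foxp3-positive gates most. For Igtp, Gbp4 and Ifi47, a low or absent transcript level and the shared exons cannot be told apart. No paired analysis was possible because each group is 1 library, so only gates within a library were paired.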

Other observations

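Genes within 500 kb of the members and with at least 60 UMIs in all were read, a window chosen after values had been seen. On the side of Iigp1 that faces the start of chromosome 18, 4 measured genes within 164 kb were all higher in both KO libraries. Of the 9032 genes tested, 25.5% showed this pattern, but those had a mean of at least 5 CPM. All 4 neighbours were below that level, so the share is no background for them. AC132320.1, with 10, 11, 28 and 27 UMIs, reached the limit of 60 only through the KO libraries. It also overlaps F830016B08Rik on the opposite strand, so the 4 genes are not 4 separate observations. Gm4951, an IRG gene, was at 0.637, 0.896, 3.23 and 2.64 CPM, and Gm4841 was at 0.527, 0.731, 2.19 and 2.16 CPM. F830016B08Rik, like Gm4951 among the other interferon-inducible GTPases listed above, was at 0.329, 0.448, 1.04 and 1.24 CPM. Of 8 measured genes on the other side, 1 (Synpo) was higher in both KO libraries. None of these 8 is in that list, and the part of gene family in this contrast was not tested. There, Dctn4 was at 79.8, 73.3, 73.0 and 73.5 CPM and Rbm22 at 83.6, 76.9, 79.6 and 79.0 CPM.

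In the IRG cluster of chromosome 11 that holds Tgtp2, WT-DOX stood apart for some genes and not for others. Gm5431 was at 5.58, 0.990, 7.41 and 5.59 CPM, low in WT-DOX, whereas 9930111J21Rik2 and Tgtp2 were high there. Gm12185 was at 68.8, 59.0, 76.4 and 62.9 CPM, lower in both doxorubicin libraries, and Irgm1 was split by genotype. The neighbours Rack1 and Mgat1 differed by at most 0.11 log2 units in each of the 4 comparisons. Gbp10 on chromosome 5 was lowest in WT-DOX as well, at 12.6, 9.03, 17.6 and 18.3 CPM.

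The barcodes outside the T cell gate, 262 to 364 in a library, had 225, 182, 245 and 202 CPM for the sum of the 10 members, below the level of the T cells in each library.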
